A study of Mus musculus with 4 samples.

Results

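The epidermal growth factor (EGF) family ligands and the ERBB receptors were examined as 10 genes, 7 ligands (Areg, Ereg, Hbegf, Tgfa, Btc, Epgn and Egf) and 3 receptors (Egfr, Erbb2 and Erbb3). Members were taken by their symbols from a list drawn up with earlier results of these data known, and all 10 were found among the 54752 gene identifiers of each library. Total RNA was sequenced from the epidermis of 4 C57BL/6 pups at postnatal day 0 (P0), 2 Skiv2l fl/fl K14-Cre pups, called knockout below, and 2 Skiv2l ctl littermates. The label of the knockout is Skiv2lf/fl;K14-Cre, and its floxed Skiv2l alleles are exposed to a Cre recombinase that the keratin 14 promoter drives in basal keratinocytes, so that these cells and their descendants lose the gene while cells of other lineages in the tissue can keep it. Under the name Skiv2l ctl the study grouped pups that were fl/fl without Cre, fl/+ without Cre or fl/+ with K14-Cre, so every control also carried at least 1 floxed allele and could carry the Cre, and the genotype of each control pup was not given. Libraries are called control 1 and 2 and knockout 1 and 2 by the numbers of their labels, values are given in this order, and a number does not pair a control with a knockout. Skiv2l encodes the helicase of the SKI complex, which feeds RNA to the cytoplasmic exosome for decay.

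EGF family ligands are made as membrane-bound precursors that metalloproteases cut to release the growth factor, and they act on the cell that made them and on its neighbors. Binding of Areg, Ereg, Hbegf, Tgfa, Btc, Epgn or Egf to EGFR makes the receptor pair with itself or with another ERBB protein and start the RAS and ERK cascade and the PI3K pathway. ERBB2 binds no known ligand and serves as a partner, while ERBB3 has little kinase activity of its own and binds neuregulins. In epidermis the pathway is known for driving keratinocyte proliferation and migration, hair follicle growth and wound repair.

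The comparison of genotypes asks what changed in epidermal RNA when keratinocytes lost Skiv2l. Levels were read as FPKM, which is a fragment count per transcript length and library size, so that genes of different length can be set side by side. The 13609 protein-coding genes with an FPKM above 0.5 in at least 1 library were tested together with limma on log2(FPKM + 1), and a gene was called at an adjusted p under 0.05. Fold changes are knockout minus Skiv2l ctl on this log2 scale, on which changes at low FPKM come out too small. With 2 pups per genotype the smallest two-sided p of an exact permutation test on 1 gene is 0.333. The tests therefore rest on the spread that limma shares across genes, and p-values measure the spread among these pups only. Depth was alike, with 6.085 and 6.274 gigabases aligned for the control pups and 5.843 and 5.931 for the knockout pups. Genes of all types above an FPKM of 0.5 numbered 17761 and 17638 in the controls, against 17384 and 16138 in knockout libraries. Knockout 2 thus had the fewest, and the reason was not tested. Skiv2l itself had an FPKM of 19.3 and 19.1 in the controls and 10.8 and 8.55 in knockout libraries, so both were below both controls. Its log2 fold change was -0.92 (SE 0.12, limma adjusted p = 0.00368), and the call was lost without control 1 (limma adjusted p = 0.0562) and without control 2 (0.0547), in a range of 0.00108 to 0.0562.

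Erbb2 and Erbb3 were the most abundant of the 10 genes in both genotypes, and the ligands spanned a wide range of levels. In Skiv2l ctl epidermis the mean FPKM ran in the order Erbb2 (78.5), Erbb3 (55.3), Btc (31.1), Egfr (25.5), Tgfa (8.69), Ereg (8.37), Hbegf (3.65), Areg (2.51), Epgn (0.857) and Egf (0.368). The ranges of the control libraries overlapped between Tgfa and Ereg and between Hbegf and Areg, and all other neighbors in this order were separate. In knockout epidermis the order was Erbb3 (65.8), Erbb2 (54.7), Egfr (30.1), Epgn (29.5), Tgfa (16.6), Btc (16.2), Ereg (13.3), Areg (12.4), Hbegf (7.69) and Egf (0.358). There the ranges of Erbb3 and Erbb2 overlapped, as did those of Egfr and Epgn, and each of Tgfa, Btc, Ereg and Areg overlapped the gene after it. Epgn thus had rank 9 in the controls and rank 4 in knockout epidermis. This order is that of FPKM. On the deposited coverage per aligned gigabase, on which Areg, Ereg, Hbegf and Erbb3 equal their FPKM, Btc (21.5 and 17.5) and Egfr (20.4 and 19.2) overlapped in the controls and Tgfa lay below Ereg and Hbegf in both genotypes. The reason why Tgfa, Btc, Egf and Egfr differ between these measures was not tested.

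**Figure D1:**
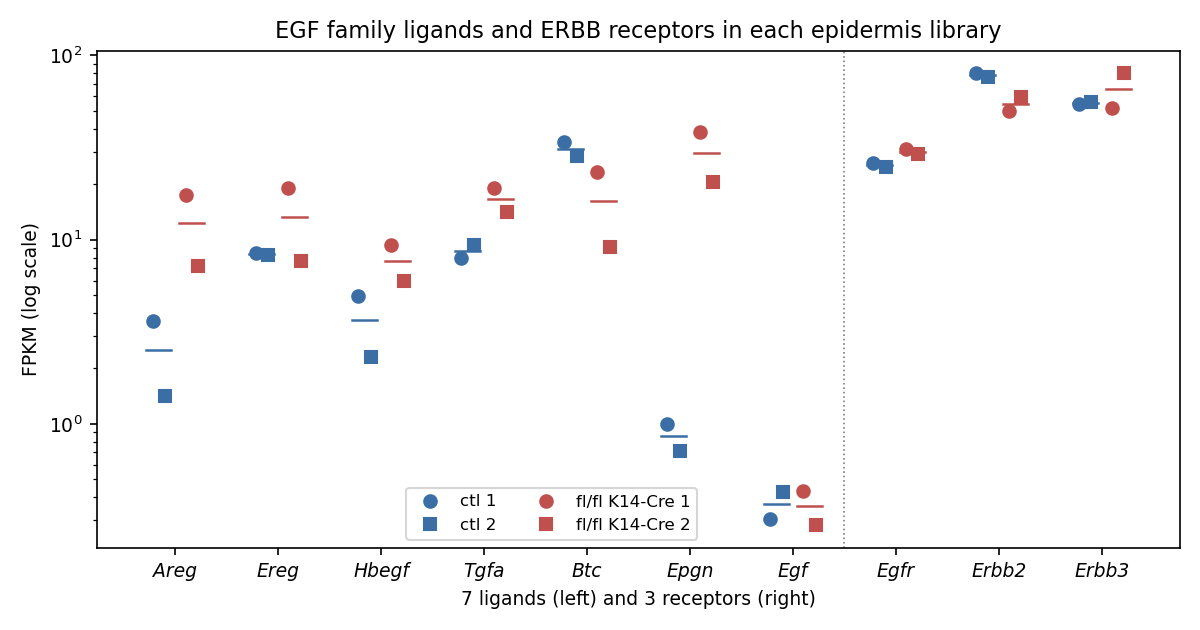
FPKM on a log axis of the 7 ligands and 3 receptors in each of the 4 libraries, with circles for replicate 1, squares for replicate 2 and a line at the mean of each genotype (blue, Skiv2l ctl; red, knockout, drawn as fl/fl K14-Cre). Epgn lies at 1.0 and 0.713 in the controls and at 38.5 and 20.5 in knockout epidermis, and Btc is the ligand whose red points both lie below both blue points.

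Of the 10 genes, 9 passed the filter on low values, and each of these 9 was above an FPKM of 0.5 in all 4 libraries. Epgn, Areg and Tgfa were called higher, Erbb2 was called lower, and 5 genes were not called. Over all tested genes, 34.4% were called in either direction, 8.99% higher and 25.4% lower. Both knockout libraries were above both controls for 5 of the 9 genes and below both for 2, against 18.2% and 55.3% of all tested genes. The median log2 fold change of the 9 genes was 0.49, and that of all tested genes was -0.20. Scaling each library to the same median moved the latter to -0.03 and the median of the 9 genes to 0.68, and quantile normalization gave -0.05 and 0.66. Over all tested genes 26.1% of those called were higher, against 53.9% with median scaling and 46.8% with quantile normalization. For the 9 genes the called genes numbered 3 higher and 1 lower, against 5 higher and 0 lower with median scaling, where 1 was lower at an unadjusted p under 0.05 (limma), and 5 higher and 1 lower with quantile normalization.

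**Figure D2:**
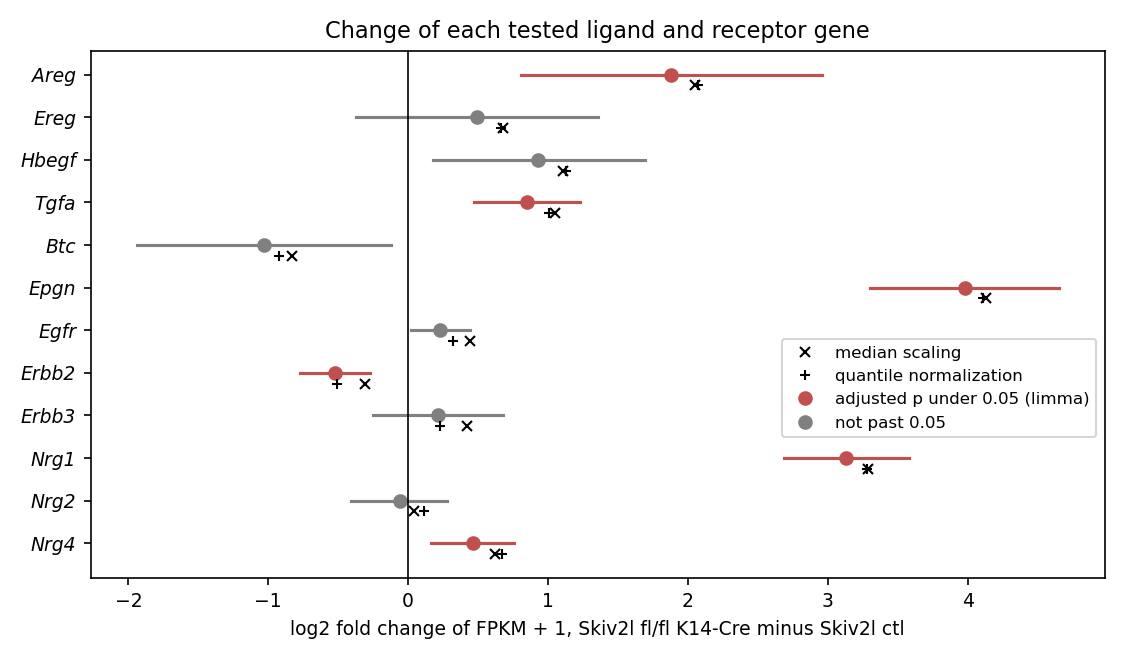
Log2 fold change of FPKM + 1 (points) with its 95% confidence interval from limma (bars) for the 9 tested ligand and receptor genes and for 3 neuregulins, in red where the adjusted p was under 0.05 and in grey where it was not. Crosses and plus signs give the value after median scaling and quantile normalization, and Epgn (3.98) and Nrg1 (3.13) lie farthest to the right, while Nrg2 (-0.06) changes sign with both scalings.

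Epgn encodes epigen, a broad-acting EGFR ligand of low affinity. Its gene (ENSMUSG00000035020.11) spans chromosome 5 from 91027464 to 91035215 on the plus strand of GRCm38. The FPKM of Epgn was 1.0 and 0.713 in Skiv2l ctl and 38.5 and 20.5 in knockout epidermis. The groups were far apart, with the lower knockout library well above the higher control. The mean rose from 0.857 ± 0.203 to 29.5 ± 12.7 (SD, n = 2), a ratio of 34.4, and the log2 fold change was 3.98 (SE 0.28, 95% confidence interval 3.30 to 4.65, limma adjusted p = 0.000444). It was the 30th highest of the 13609 tested genes. The call held in all 14 alternatives, where the log2 fold change ran from 3.54 to 4.90 and the limma adjusted p from 3.54e-06 to 0.0196. The mean read depth over the gene was 5.89 and 4.35 in the controls, against 215 and 117 in knockout libraries.

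Areg encodes amphiregulin, an EGFR ligand that keratinocytes use as an autocrine growth factor. Its gene (ENSMUSG00000029378.5) lies on chromosome 5 from 91139599 to 91148432 on the plus strand. The FPKM of Areg was 3.60 and 1.42 in Skiv2l ctl and 17.5 and 7.20 in knockout epidermis. The groups did not overlap, and in each of them replicate 2 was far below replicate 1, at 39.5% of it in the controls and 41.1% in knockout. The mean rose from 2.51 ± 1.54 to 12.4 ± 7.31 (SD, n = 2), a ratio of 4.92, with a log2 fold change of 1.88 (SE 0.44, 95% confidence interval 0.81 to 2.96, limma adjusted p = 0.0218). The log2 fold change stayed between 1.30 and 2.47 in 14 alternatives. Its lowest limma adjusted p, 5.48e-05, came from the fit with the replicate number as a block, although that number pairs no pups. The call was lost with no filter on low values (limma adjusted p = 0.0802), without control 1 (0.0636), without control 2 (0.143) and without knockout 1 (0.0619).

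Tgfa encodes transforming growth factor alpha, a classical EGFR ligand of keratinocytes. Its gene (ENSMUSG00000029999.14) lies on chromosome 6 from 86195223 to 86275719 on the plus strand. The FPKM of Tgfa was 8.0 and 9.38 in Skiv2l ctl and 19.1 and 14.2 in knockout epidermis, and the groups did not overlap. The mean rose from 8.69 ± 0.974 to 16.6 ± 3.46 (SD, n = 2), and the log2 fold change was 0.85 (SE 0.16, 95% confidence interval 0.47 to 1.23, limma adjusted p = 0.0105). Without control 1 the limma adjusted p was 0.0985 and without control 2 it was 0.0659, the alternatives in which the call was lost, and over all 14 it ran from 0.00459 to 0.0985. The deposited coverage gave Tgfa a lower level than its FPKM did. Per aligned gigabase the coverage of Tgfa was 1.43 and 1.67 in the controls, against 3.35 and 2.55 in knockout epidermis, so the groups stayed apart. Exons of Tgfa overlap those of the gene Gm43917 on the opposite strand, which had an FPKM of 0.277 and 0.445 in the controls, against 0.948 and 0.518 in knockout epidermis, so reads in the overlap are uncertain. Of the 75-base stretches of Tgfa transcripts, 0.693% were found in Gm43917.

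Hbegf encodes heparin-binding EGF-like growth factor, which takes part in keratinocyte migration in wounds. The FPKM of Hbegf (ENSMUSG00000024486.5) was 4.98 and 2.32 in Skiv2l ctl and 9.40 and 5.98 in knockout epidermis. Both knockout values were above both controls, although the spread within the controls was wide. The log2 fold change was 0.93 (SE 0.31, 95% confidence interval 0.18 to 1.69), and it missed the threshold at a limma adjusted p of 0.0613. Hbegf passed it after median scaling (1.11, limma adjusted p = 0.0452) and after quantile normalization (1.13, limma adjusted p = 0.0441), and without control 2 its log2 fold change was 0.51 (limma adjusted p = 0.276, which with 0.00181 bounds the range over its alternatives).

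Ereg encodes epiregulin, a ligand of EGFR and ERBB4. Its gene (ENSMUSG00000029377.5) lies on chromosome 5 from 91074622 to 91093646 on the plus strand, and its exons overlap those of the antisense gene Gm19610 (at most 2.04 FPKM), so reads in the overlap are uncertain. Of the 75-base stretches of Ereg transcripts, 1.65% were found in Gm19610. The FPKM of Ereg was 8.51 and 8.24 in Skiv2l ctl and 19.0 and 7.69 in knockout epidermis. Only knockout 1 was above the controls, and knockout 2 was just below them. The log2 fold change was 0.49 (SE 0.36, 95% confidence interval -0.37 to 1.36, limma adjusted p = 0.309), and 1 library decided it. Without knockout 1 it was -0.11 (limma adjusted p = 0.450) and without knockout 2 it was 1.09 (limma adjusted p = 0.00453), with adjusted p over all alternatives from 0.00453 to 0.553.

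Btc encodes betacellulin, a ligand of EGFR and ERBB4, and it was the most abundant ligand of the controls. Its gene (ENSMUSG00000082361.6) lies on chromosome 5 from 91357261 to 91402994 on the minus strand. The FPKM of Btc was 33.9 and 28.4 in Skiv2l ctl and 23.2 and 9.13 in knockout epidermis. Both knockout values were below both controls, knockout 2 by far more than knockout 1. The log2 fold change of -1.03 (SE 0.38, 95% confidence interval -1.94 to -0.12) missed the threshold at a limma adjusted p of 0.0778. Without knockout 1 it was -1.66 (limma adjusted p = 0.00289) and without knockout 2 it was -0.40 (limma adjusted p = 0.0800), with adjusted p over all alternatives from 0.00289 to 0.297.

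Egf, the founding ligand of the family, was barely detected. Its FPKM was 0.306 and 0.429 in Skiv2l ctl and 0.434 and 0.282 in knockout epidermis, which overlapped, and no test was made below the filter. All 7 ligands, Egf included, were lower in knockout 2 than in knockout 1, as were 57.1% of all tested genes. Knockout 2 had from 39.3% (Btc) to 74.3% (Tgfa) of the FPKM of knockout 1 over the ligands. For the receptors it was 94.4% for Egfr, 118% for Erbb2 and 155% for Erbb3.

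The ligand pool as a whole had a different makeup in the 2 genotypes. Summed over the 7 ligands, FPKM was 60.2 and 50.9 in Skiv2l ctl and 127 and 64.9 in knockout epidermis, so that both sums were above the controls but knockout 2 only slightly. Btc made up 56.2% and 55.8% of the sum in the controls and 18.3% and 14.1% in knockout. Epgn made up 1.66% and 1.40% in the controls and 30.3% and 31.6% in knockout, where it was the ligand with the highest share. These shares were close between replicates although the sums were not. Areg went from 5.98% and 2.80% to 13.8% and 11.1%, and the shares of Ereg, Hbegf and Tgfa overlapped between genotypes on FPKM. Computed from coverage per gigabase in place of FPKM, the mean share of Btc was 53.5% and 13.2% and that of Epgn 2.26% and 38.3%, in controls and knockout respectively. On that scale the shares of Ereg did not overlap, at 20.7% and 25.7% in the controls and 18.9% and 15.6% in knockout. The mean share of Tgfa there was 4.35% in controls and 4.26% in knockout, in place of 15.9% and 18.4% on FPKM. These sums and shares are a description of 4 libraries and were given no test.

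**Figure D3:**
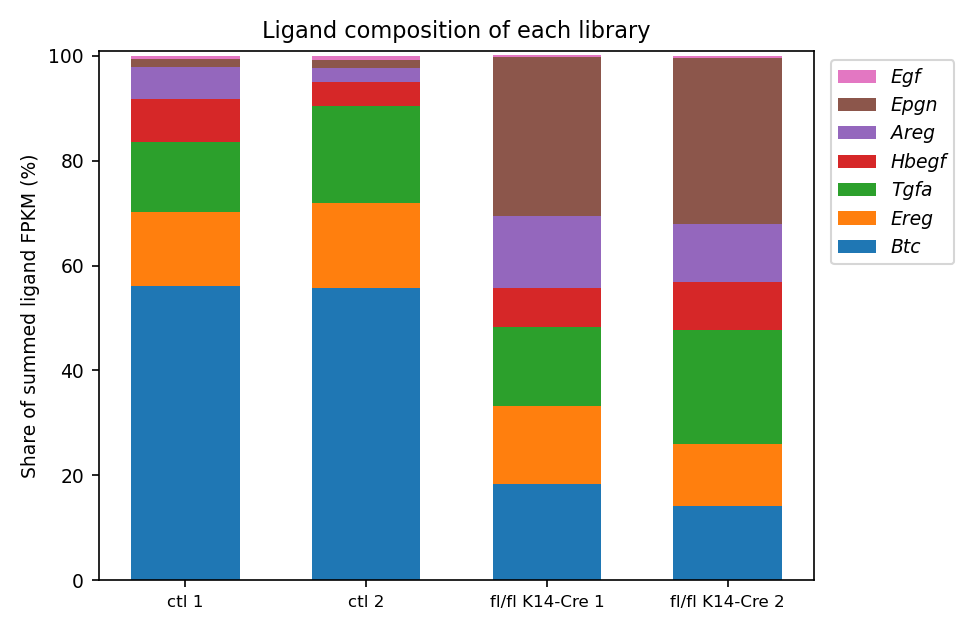
Share of each ligand in the summed FPKM of the 7 ligands (vertical axis, percent) in the 4 libraries. The Btc segment at the bottom takes 56.2% and 55.8% of the control bars and 18.3% and 14.1% of the knockout bars, and the Epgn segment near the top takes 30.3% and 31.6% of the latter.

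Epgn, Ereg, Areg and Btc are the 4 protein-coding genes of one stretch of chromosome 5 of 375.5 kb, in that order, with Btc alone on the minus strand. Within this stretch the log2 fold changes were 3.98, 0.49, 1.88 and -1.03. The genes on either side of it were both called lower in knockout epidermis. Mthfd2l, a mitochondrial folate enzyme gene that ends near the start of Epgn, went from 5.45 and 5.22 to 3.56 and 3.54, a log2 fold change of -0.48 (limma adjusted p = 0.0197). Its call was lost with no filter (limma adjusted p = 0.0512), with median scaling (0.0896), with quantile normalization (0.119), without control 1 (0.148) and without control 2 (0.121), and its lowest adjusted p was 0.0145. Parm1, beyond Btc, fell from 8.22 and 8.17 to 3.67 and 3.96 (-0.93, limma adjusted p = 0.00206).

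**Figure D4:**
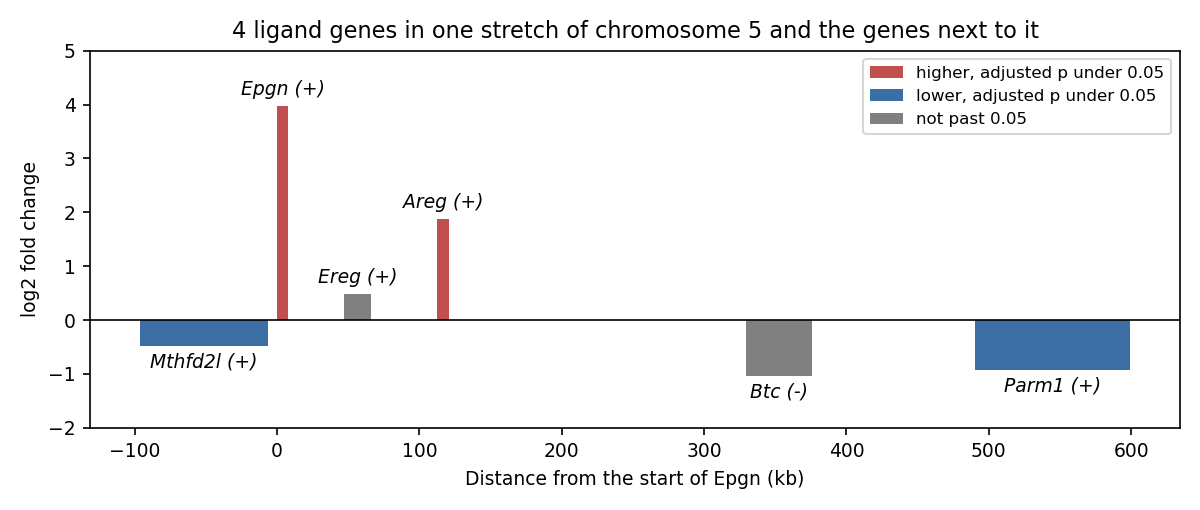
Log2 fold change (bar height) of the 4 ligand genes of the chromosome 5 stretch and of the protein-coding gene on either side, with each bar drawn over the extent of its gene in kb from the start of Epgn and the strand in brackets. Epgn and Areg (red) are above 0 with adjusted p under 0.05, Ereg and Btc (grey) did not pass, and the flanking Mthfd2l and Parm1 (blue) are below 0.

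The promoters of Epgn, Areg and Btc are shown because these genes lie in one stretch and had log2 fold changes of different size and sign. Each is the window from 250 bases before to 50 bases after the start of the RefSeq gene on GRCm38.p6, printed in the direction of transcription. Capitals mark matches, on either strand, to 4 short motifs: a cAMP response element (TGACGTCA), an AP-1 site (TGANTCA), the TATA box (TATAAA) and the GC box (GGGCGG). The windows are chr5:91027267-91027566 on the plus strand for Epgn, chr5:91139349-91139648 on the plus strand for Areg and chr5:91402945-91403244 on the minus strand for Btc.
Epgn: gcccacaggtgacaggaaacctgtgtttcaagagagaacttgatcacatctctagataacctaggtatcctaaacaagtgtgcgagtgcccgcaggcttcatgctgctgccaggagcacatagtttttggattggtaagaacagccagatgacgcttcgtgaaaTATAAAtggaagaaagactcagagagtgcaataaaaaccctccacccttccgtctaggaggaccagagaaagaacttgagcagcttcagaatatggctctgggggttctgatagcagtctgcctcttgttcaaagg
Areg: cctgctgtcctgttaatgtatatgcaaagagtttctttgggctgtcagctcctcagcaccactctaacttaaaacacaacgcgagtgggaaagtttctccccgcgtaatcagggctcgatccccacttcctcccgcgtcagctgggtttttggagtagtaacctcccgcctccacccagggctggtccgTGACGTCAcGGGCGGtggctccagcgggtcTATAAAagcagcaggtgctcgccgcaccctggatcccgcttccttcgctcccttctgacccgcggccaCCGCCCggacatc
Btc: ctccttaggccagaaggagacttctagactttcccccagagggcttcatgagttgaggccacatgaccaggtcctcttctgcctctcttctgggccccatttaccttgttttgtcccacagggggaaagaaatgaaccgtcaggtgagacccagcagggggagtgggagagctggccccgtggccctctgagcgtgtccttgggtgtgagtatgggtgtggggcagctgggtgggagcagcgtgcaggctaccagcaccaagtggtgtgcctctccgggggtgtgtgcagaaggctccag
With the start base counted as 0, the window of Areg held the cAMP response element from -61 to -54, a GC box from -52 to -47, a TATA box from -31 to -26 and a second GC box, on the opposite strand, from 37 to 42. The window of Epgn held a TATA box from -86 to -81. The deposited table starts Epgn further upstream than RefSeq does, and from that start the TATA box begins at -33. The window of Btc held none of these letters, which says only that they are not in this window. Of all 32851 promoter windows, 1.79% held the cAMP response element, 7.81% the AP-1 site, 13.6% the TATA box and 35.7% the GC box. Of the 10 genes 7 had a window in the table, and 4 of these held at least 1 motif, with a GC box in Tgfa and Egfr as well and an AP-1 site in none. Ereg, Hbegf and Erbb3 had no window.

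Among the receptors Erbb2 was called lower, and Egfr and Erbb3 were not called. Egfr, the receptor of all 7 ligands, has its gene (ENSMUSG00000020122.16) on chromosome 11 from 16752203 to 16918158 on the plus strand. The FPKM of Egfr was 26.1 and 24.9 in Skiv2l ctl and 31.0 and 29.2 in knockout epidermis, a small difference without overlap. Its log2 fold change was 0.23 (SE 0.09, 95% confidence interval 0.02 to 0.44, limma adjusted p = 0.0813). The call depended on the scaling, since Egfr passed with median scaling (0.44, limma adjusted p = 0.0139) and with quantile normalization (0.32, limma adjusted p = 0.0403), and over all alternatives the adjusted p ran from 0.0139 to 0.301.

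Erbb2 encodes the co-receptor without a ligand of its own. Its gene (ENSMUSG00000062312.5) lies on chromosome 11 from 98412470 to 98437716 on the plus strand. The FPKM of Erbb2 was 80 and 76.9 in Skiv2l ctl and 50.1 and 59.3 in knockout epidermis, and the groups did not overlap. The mean fell from 78.5 ± 2.21 to 54.7 ± 6.52 (SD, n = 2), with a log2 fold change of -0.52 (SE 0.10, 95% confidence interval -0.77 to -0.27, limma adjusted p = 0.0135). The call was lost with median scaling (-0.31, limma adjusted p = 0.0924), without control 1 (-0.49, limma adjusted p = 0.106) and without control 2 (-0.55, limma adjusted p = 0.0873), and over all alternatives the adjusted p ran from 0.00772 to 0.106. Erbb2 shares exon bases with Mien1 on the opposite strand, whose FPKM was 26.7 and 25.7 in the controls, against 22.5 and 25.1 in knockout (log2 fold change -0.13, or 0.07 with median scaling, limma adjusted p = 0.290). Whether the counting used strand is not given in the sources used here, so reads in the shared bases cannot be assigned. None of the 5206 stretches of 75 bases in Erbb2 transcripts occurred in another gene on either strand, so each shared run was shorter than 75 bases. Bulk RNA does not tell fewer cells of a type from less RNA per cell, here or for any other gene.

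Erbb3, the receptor of neuregulins that signals through its partner, has its gene (ENSMUSG00000018166.8) on chromosome 10 from 128567523 to 128589652 on the minus strand. The FPKM of Erbb3 was 54.4 and 56.2 in Skiv2l ctl and 51.7 and 79.9 in knockout epidermis, so that knockout 1 was below the controls and knockout 2 above them. The log2 fold change was 0.21 (SE 0.19, 95% confidence interval -0.25 to 0.68, limma adjusted p = 0.406). Without knockout 1 it was 0.52 (limma adjusted p = 0.0137) and without knockout 2 it was -0.09 (limma adjusted p = 0.423), with adjusted p over all alternatives from 0.0137 to 0.654. Melanocytes and Schwann cells also express Erbb3. The 6 melanocyte markers, all above an FPKM of 0.5 in every library and none at 0, summed to 52.9 and 59.6 in the controls and to 55.5 and 69.5 in knockout, so knockout 2 was again the highest. Of these 6, Tyrp1 was called higher (2.68 and 3.74 against 5.20 and 7.92, limma adjusted p = 0.0279). Mlana was also above both controls (1.76 and 3.16 against 4.02 and 3.86) but not called, and the other 4 overlapped. The part of these markers in the result was not tested. The 6 Schwann cell markers summed to 20.1 and 15.8 against 21.3 and 23.0, of which 3 were above 0.5 in each library, and their part in the result was not tested.

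The other genes of the family are the neuregulins, which bind ERBB3, ERBB4 or both, and Erbb4 itself. Of these 5 genes 3 were tested, and 2 were called higher and 0 lower (limma, which also had 0 lower at an unadjusted p under 0.05). For the full set of 13609 genes the called shares were 8.99% up and 25.4% down. A list with 3 tested genes is too short to be weighed against such shares. Nrg1 had an FPKM of 1.26 and 1.05 in Skiv2l ctl and 21.5 and 14.8 in knockout epidermis, with the groups far apart. Its log2 fold change of 3.13 (SE 0.18, limma adjusted p = 0.000271) was the 45th highest of all tested genes. On coverage per gigabase, where its values were lower, it was 1.38 (limma adjusted p = 0.0111), and over all 14 alternatives the adjusted p ran from 5.54e-06 to 0.0157.

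Nrg4 had an FPKM of 2.88 and 2.77 against 3.96 and 4.58, without overlap, and a log2 fold change of 0.46 (SE 0.12, limma adjusted p = 0.0324). The call of Nrg4 was lost with no filter (limma adjusted p = 0.0780), with genes of all types (0.0552), with coverage per gigabase (log2 fold change 0.13, adjusted p 0.119), without control 1 (0.154), without control 2 (0.175) and without knockout 2 (0.0985), and its lowest adjusted p was 0.0126. Coverage per gigabase of Nrg4 was low, at 0.248 and 0.235 against 0.331 and 0.385, and at such values the log2 scale with 1 added gives small changes. On the same measure Rhbdl2 had 0.606 and 0.657 against 0.309 and 0.201, and Spred2 had 1.71 and 1.52 against 0.892 and 0.982. Nrg2, at 0.983 and 0.791 against 0.772 and 0.842, had a log2 fold change of -0.06 (limma adjusted p = 0.756) whose sign turned with both scalings. Nrg3 and Erbb4 were below the filter, and Erbb4, a receptor of Btc, Ereg and Hbegf, was at most 0.129 in any library.

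A list of 13 genes around the release and trafficking of the ligands also held genes that act on the proteases. All 13 were tested, and 4 were called higher, 3 lower and 6 were not called, with a median log2 fold change of 0.18. Over all tested genes 8.99% were called higher and 25.4% lower, with a median of -0.20, and the count called lower was close to that share. Adam17, the metalloprotease known as the main sheddase of Areg, Ereg, Hbegf, Tgfa and Epgn, had an FPKM of 18.8 and 19.1 in Skiv2l ctl and 19.5 and 17.8 in knockout, a log2 fold change of -0.03 (limma adjusted p = 0.845) with overlap and a sign that turned with both scalings. Adam8, another metalloprotease, rose from 6.72 and 6.76 to 18.7 and 16.4 (1.26, limma adjusted p = 0.000778). Frmd8, which stabilizes the iRhom and ADAM17 complex at the surface, rose from 8.58 and 8.41 to 17.1 and 15.3 (0.85, limma adjusted p = 0.00235). Rhbdf1, which encodes an iRhom that carries ADAM17 to the surface, fell from 27.8 and 27.0 to 17.1 and 16.4 (-0.68, limma adjusted p = 0.00295), a call lost without control 1 at an adjusted p of 0.05 on rounding, the highest of its alternatives. Rhbdl2, a rhomboid protease, fell from 7.75 and 8.20 to 4.16 and 2.45 (-1.09, limma adjusted p = 0.00980), although its adjusted p was 0.0855 without control 1 and 0.0935 without control 2 and its log2 fold change -0.38 on coverage per gigabase (limma adjusted p = 0.0202, in a range of 0.00262 to 0.0935).

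Of 22 genes that restrain the receptors or the pathway 21 were matched to a row and tested, and 2 were called higher, 3 lower and 16 were not called, with a median log2 fold change of -0.08. The count called higher was near the 8.99% of all tested genes and the count called lower was below their 25.4%. Socs5, which promotes EGFR degradation, rose from 12.2 and 10.4 to 22.2 and 22.4 (0.92, limma adjusted p = 0.00202). Among those called lower was Lrig1, an ERBB antagonist of epidermal stem cells, which fell from 38.5 and 39.7 to 24.7 and 26.5 (-0.60, limma adjusted p = 0.00439), with an adjusted p of 0.0524 without control 1 and 0.0596 without control 2 in a range of 0.00269 to 0.0596. Errfi1 of the same list went the other way but was not called, at 38.5 and 29.4 in Skiv2l ctl and 40.1 and 74.1 in knockout (0.68, limma adjusted p = 0.107). The SPRED proteins inhibit RAS signaling. Spred2 fell from 23.4 and 20.7 to 12.5 and 13.3 (-0.73, limma adjusted p = 0.00407), and on coverage per gigabase its log2 fold change was -0.43 (limma adjusted p = 0.0214). Spred3 rose from 2.95 and 2.80 to 5.95 and 4.74 (0.71, limma adjusted p = 0.0118). Without control 1 the limma adjusted p of Spred2 was 0.0588, in a range of 0.00278 to 0.0588, and that of Spred3 was 0.0929, or 0.103 without control 2, in a range of 0.00489 to 0.103.

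Of 25 adaptor and kinase genes between the receptors and ERK or AKT, 3 were called higher, 6 lower and 16 were not called, with a median log2 fold change of -0.17. Both counts were near the shares of all tested genes, 8.99% higher and 25.4% lower. This split turned with the scaling, to 4 higher and 2 lower with median scaling and 3 of each with quantile normalization. Map2k1, which encodes the kinase MEK1, rose from 12.2 and 12.3 to 20.9 and 23.8 (0.82, limma adjusted p = 0.00266). Pik3r2, a regulatory subunit of PI3K, fell from 60.5 and 62.2 to 32.0 and 27.9 (-1.01, limma adjusted p = 0.00118).

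Of 14 genes known to be induced by ERK signaling, 5 were called higher and 0 lower (limma, with 1 lower at an unadjusted p under 0.05), against 8.99% and 25.4% of all tested genes, and the median log2 fold change was 0.28. Ier3, an early response gene, rose from 10.1 and 8.65 to 32.0 and 58.9 (2.10, limma adjusted p = 0.00298). Dusp5, a phosphatase that acts on ERK in the nucleus, rose from 15.1 and 10.6 to 41.4 and 40.1 (1.61, limma adjusted p = 0.00132). Plaur, the urokinase receptor, rose from 1.13 and 1.43 to 6.74 and 3.55 (1.38, limma adjusted p = 0.0103), with a call that was lost without control 1 (0.0961) and without control 2 (0.0763) in a range of 0.00279 to 0.0961. Fosl1, which encodes an AP-1 subunit, and Phlda1 were the other genes called, with log2 fold changes of 0.87 (limma adjusted p = 0.0231) and 0.63 (limma adjusted p = 0.0172). Both lost the call with no filter (limma adjusted p = 0.0765 for Fosl1 and 0.0524 for Phlda1), without control 1 (0.0610 and 0.108) and without control 2 (0.146 and 0.122), and Fosl1 also without knockout 1 (0.0799), and their lowest adjusted p was 0.00159 and 0.00667. The remaining 9 genes were not called, among them Dusp6, which encodes a cytoplasmic ERK phosphatase and is a common readout of ERK, with a log2 fold change of -0.31 (limma adjusted p = 0.0613, called in 2 of 14 alternatives in a range of 0.0352 to 0.440). The 5 lists together held 16 genes called higher and 12 lower, of which 57.1% were higher, or 75.9% with median scaling and 69.0% with quantile normalization, beside 26.1%, 53.9% and 46.8% of the called genes of the whole table. The lists mix genes of different roles and were chosen with earlier results of these data known, so these shares are a description only.

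**Figure D5:**
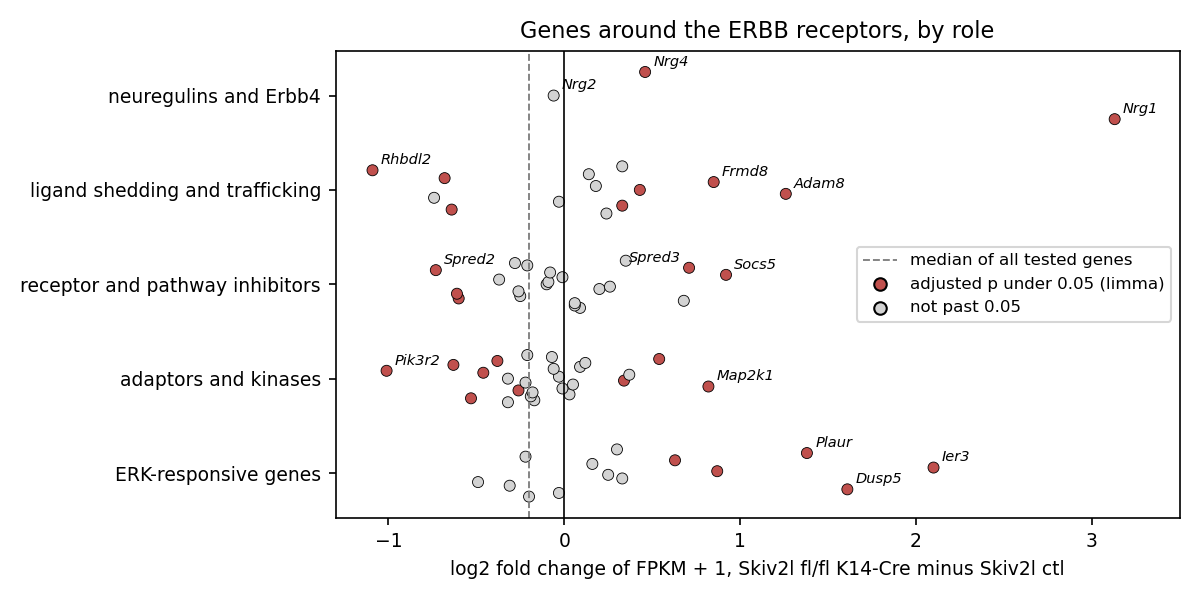
Log2 fold change of FPKM + 1 of each tested gene (points) in 5 lists around the ERBB receptors, in red where the adjusted p was under 0.05 and in grey where it was not, with the dashed line at the median of all tested genes (-0.20) and up to 3 genes with large changes named in each list. All red points of the ERK-responsive list lie to the right of 0, while the shedding, inhibitor and kinase lists have red points on both sides.

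The labelled tissue was checked against markers. The 7 keratinocyte markers were all above an FPKM of 0.5 in every library and summed to 26759 and 28349 in Skiv2l ctl and 24408 and 27762 in knockout epidermis, but 1 of them was called higher and 2 lower. Krt14, a keratin of the basal layer, rose from 1736 and 1812 to 7381 and 7312 (2.05, limma adjusted p = 0.000171). It was the 1 marker of these 7 above both controls in both knockout libraries, while 5 were below both. Among these 5, but not called, was Krt5, also a basal keratin (2003 and 2075 against 1761 and 1759, limma adjusted p = 0.130). Itga6 was another (114 and 118 against 108 and 98.2, limma adjusted p = 0.175). Lor, which encodes the cornified envelope protein loricrin, fell from 828 and 867 to 448 and 444 (-0.92, limma adjusted p = 0.00109). Krt1, a suprabasal keratin, fell from 12721 and 13157 to 8246 and 9975 (-0.51, limma adjusted p = 0.0401), a call that held in 5 of 14 alternatives, with a log2 fold change of 0.00 after quantile normalization and adjusted p from 0.00504 to 1. The part of these shifts in the ligand and receptor values was not tested. The 8 leukocyte markers summed to 27.8 and 39.1 in the controls and 16.7 and 14.7 in knockout, with 7 above 0.5 in each library. The 6 fibroblast markers summed to 61.3 and 69.0 against 21.9 and 25, most of it Dcn (57.0 and 62.7 against 16.9 and 21.4). Of the 5 fibroblast markers tested, Dcn and Col1a2 were below both controls in both knockout libraries. Pdgfra was above both (0.299 and 0.250 against 0.789 and 0.668), and Col3a1 and Col1a1 (at most 1.27) overlapped. The 7 hair follicle markers summed to 571 and 621 against 1533 and 1356, most of it Krt17 (498 and 519 against 1481 and 1301), the 1 marker of the list above both controls in both knockout libraries, while 4 were below both. Shh, a ligand of the follicle bud, fell from 11.7 and 12.6 to 2.39 and 2.82 (limma adjusted p = 0.000319), and Lhx2, a follicle transcription factor, fell from 31.3 and 41.2 to 20.3 and 19.9 (limma adjusted p = 0.00797, or 0.0517 without control 2, the highest of its range from 0.00231). Among the 6 neutrophil markers Ly6g and Elane were listed at 0 in all 4 libraries, and the sum of 0.582 and 0.710 against 7.21 and 5.84 was in knockout mostly Cxcr2 (6.51 and 5.56). The sums were low for 5 endothelial (0.617 to 1.03), 5 Merkel cell (2.39 to 6.63) and 5 muscle markers (1.30 to 3.08). The leukocyte and fibroblast sums were lower in both knockout libraries, the fibroblast sum mostly through Dcn. Hair follicle markers differed in both directions, and the part of these cells in the ligand and receptor values was not tested.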

How the data were processed

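Total RNA of P0 epidermis from 4 pups, 2 per genotype, was sequenced, and the authors processed the reads with an institutional workflow on GRCm38. Which aligner was run, and whether strand was used in counting, is not given in the sources used here. The authors deposited FPKM values per gene, scaled for the size of the library and the length of each transcript. The deposited TPM values are scaled to one sum per library. The deposited coverage signal is the mean read depth over a gene, and its ratio to FPKM gave the aligned gigabases. Intervals for counting error need counts and are not given, and the number of pups limits the precision.

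FPKM was summed per gene identifier, and protein-coding genes were taken from GENCODE M21 by unversioned identifier. Those above an FPKM of 0.5 in any library (1 or more of 4) entered a limma 3.58.1 fit of log2(FPKM + 1), run under R 4.3.3 with lmFit and a trended eBayes. Tests were two-sided, and p-values were adjusted by Benjamini-Hochberg over all 13609 tested genes. The fit was tested on simulated data. The 10 genes, the 5 pathway lists and the 10 marker lists were chosen with earlier results of these data known. Named were all 10 genes, the neuregulins, Erbb4, Skiv2l and, per pathway list, up to 3 called genes with the largest change and no overlap between genotypes. What that rule picks beyond the genes named is not reported here. Adam17, Rhbdf1, Lrig1, Fosl1, Phlda1, Dusp6, Mthfd2l, Parm1, Mien1, Shh, Lhx2, Krt1, Krt14, Lor and the other markers named were chosen after their values were seen. Pups were numbered 1 and 2 within each genotype by the labels, and come from different animals. Alternatives were a pseudocount of 0.1, FPKM above 1 in at least 2 libraries, no filter, quantile normalization, median scaling, TPM, no trend, a block for the replicate number, genes of all types, a change of at least 2-fold, leaving out each library and, chosen after seeing the data, coverage per aligned gigabase. When 1 library was left out, the lone library of its genotype was assumed to vary like the other group. Promoter sequences are from RefSeq (GRCm38.p6). Of the 75-base stretches of transcripts, none of Areg, Hbegf, Btc, Epgn, Egfr, Erbb2 and Erbb3 occurred in other genes, against 1.65% for Ereg, 0.693% for Tgfa and 7.19% for Egf. Read files and the study's staining, qRT-PCR and flow cytometry were not analysed here.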

Additional observations from a re-analysis of the deposited data

How the results depend on the processing

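Genes called higher, 1223 over all tested genes, numbered 1894 with median scaling, 421 with a change of at least 2-fold, and 497 to 1146 when 1 library was left out. Genes called lower, 3455 in all, numbered 1623 with median scaling, 1917 with quantile normalization, 480 at 2-fold and 805 to 3135 when 1 library was left out. Of the ligands and receptors, 3 called higher became 5 with median scaling, 5 with quantile normalization and 1 to 4 when 1 library was left out. The 1 called lower, Erbb2, became 0 with median scaling, 0 at 2-fold, 2 with the replicate block and 0 to 2 when 1 library was left out (limma, with 1 lower at an unadjusted p under 0.05 with median scaling, without control 1 and without control 2). The 16 pathway genes called higher became 10 with no filter, 5 at 2-fold and 7 to 17 when 1 library was left out, and the 12 called lower became 7 with median scaling, 2 at 2-fold and 2 to 14 when 1 library was left out. The cause of these differences was not tested. Signs turned for Ereg without knockout 1 (-0.11, up to 1.09 over the 4 libraries left out), for Erbb3 without knockout 2 (-0.09, up to 0.52), for Nrg2 with median scaling (0.04), quantile normalization (0.11) and without control 1 (0.01, down to -0.13), for Adam17 with median scaling (0.18), quantile normalization (0.11), coverage per gigabase (0.01) and without knockout 2 (0.04), and for Mien1 with median scaling (0.07). The log2 fold change of Krt1 was 0.00 with quantile normalization. With coverage per gigabase, chosen after seeing the data, the mean share of Btc was 53.5% in place of 56.0% in Skiv2l ctl and 13.2% in place of 16.2% in knockout, and that of Epgn 2.26% in place of 1.53% and 38.3% in place of 30.9%. When 1 library was left out these shares ran from 55.8% to 56.2%, 14.1% to 18.3%, 1.40% to 1.66% and 30.3% to 31.6%, and the ratio of the summed ligands, 1.73, from 1.17 to 2.29.

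Pups share only a replicate number across genotypes, and the correlation of their deviations from the group means was -0.077. A block for it gave Epgn, Areg, Hbegf and Nrg1, among others, their lowest adjusted p, although the number does not pair pups. With the replicate number as a block, 1264 genes were called higher and 3393 lower, and 4 ligands and receptors were higher and 2 lower, since Hbegf (limma adjusted p = 0.00181) and Btc (limma adjusted p = 0.00735) passed.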
